A study of Mus musculus with 36 samples.

Results

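Triacylglycerol in a fat cell is held in a lipid droplet, and 10 genes that coat that droplet, release its fat or set the signal for release were followed here in epididymal white adipose tissue (eWAT). They are the receptor gene Adrb3 and the phosphodiesterase gene Pde3b, the droplet coat genes Plin1, Plin4 and Cidec, and the lipase genes and their partners Pnpla2, Abhd5, G0s2, Lipe and Mgll. The members were taken by symbol from a table of 24750 genes, each had a single row, and all 10 passed the filter on low values that 17852 genes passed. The rule that found them uses their symbols and no measured value, although the set was proposed with results of these data known.

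The eWAT came from 36 male mice in 12 groups of 3, which were WT mice (C57BL/6, bred separately) or CCL19-KI mice, a homozygous line in which Ccl19 was placed in the Adipoq locus so that adipocytes make the chemokine while Adipoq itself is kept. The knock-in is a single line and the WT mice were bred apart from it, so genotype and colony cannot be told apart. Mice of both genotypes received a normal diet (ND), a 40% high-fat diet (HFD) or a 60% HFD for 10 weeks, of which 8 preceded ligation. In 18 mice a ligature, which induces periodontitis (ligature-induced periodontitis), had been in place for 2 weeks, from the age of 14 weeks, while 18 mice are labelled without one. Since the series' overall description mentions ligation for every group, the groups here rest on the labels of single samples. All the mice had been perfused and the lymph nodes of the fat pad removed. The comparisons ask what the knock-in, the ligature and the diet each changed. Whole reads recovered from the values numbered 11962228 to 21581595 a library, with a median of 15573273. Values are normalized CPM, read counts scaled to library size by edgeR.

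Lipolysis takes triacylglycerol apart in steps. Pnpla2 (adipose triglyceride lipase) removes the first fatty acid, Lipe (hormone-sensitive lipase) the next and Mgll (monoacylglycerol lipase) the last, which frees glycerol. Abhd5 (CGI-58) activates the first lipase and is held by the perilipin Plin1 at rest, G0s2 inhibits that lipase, noradrenaline starts the process through the receptor Adrb3 and cAMP, and insulin restrains it through Pde3b, which breaks cAMP down.

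Before any comparison, the knocked-in gene was read in every library. Ccl19 was 0.507 to 4.51 normalized CPM in 17 of the 18 libraries labelled WT and 5.57 to 34.6 in 17 of the 18 labelled CCL19-KI. The library labelled unligatured ND WT replicate 2 had 19.2, and the library labelled unligatured 60% HFD CCL19-KI replicate 3 had 0.687. Gm2564, a gene that shares 77.7% of its 31-base words with Ccl19, gave a sharper split, with 0 to 0.16 in those 17 WT libraries and 11.6 to 108 in those 17 CCL19-KI libraries. It was 41.9 in the first of the 2 libraries and 0 in the second. Both therefore went against their genotype label. They were kept as labelled in the fit of 36 mice, and the main tests that rest on them are also given without them. The fit without them has 2 mice each in the unligatured ND WT and unligatured 60% HFD CCL19-KI groups.

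Markers of other tissues were read in the libraries, and whether their RNA came from those tissues was not tested. The sum of 10 hepatocyte markers ranged from 129 to 42061 and that of 6 epididymis markers from 0.0707 to 12723. The epididymis sum exceeded 1000 in 6 libraries, among them both that went against their label (5829 and 12723). The 12 adipocyte markers were above 0 in all 36 libraries, with sums of 10397 to 44166. The sum of 4 brown adipocyte markers was 2.21 to 106. Their medians were 0.139 for Ucp1, which defines brown fat, 0.7 for Dio2, 3.12 for Cpt1b and 7.65 for Elovl3. In bulk tissue, fewer adipocytes and less RNA per adipocyte cannot be told apart.

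The bases before the start of 4 member genes are shown as the sequence context of the genes whose levels are compared. They stand for Mgll and Abhd5, which differed between diets, and for Cidec and Pnpla2, the coat and lipase genes highest per kilobase. RefSeq (GRCm38.p6) gave 11 promoters for 8 of the 10 members, not for Adrb3 and Pde3b, and bases inside the GENCODE gene were left out. Capitals mark motifs found on either strand. These are the E-box, spelled CACGTG, to which basic helix-loop-helix factors bind. The GC box of Sp1-family factors is spelled GGGCGG. The core of nuclear receptor sites is spelled AGGTCA, and that of the cAMP response element, through which the cAMP signal reaches genes, is spelled TGACG.
Mgll, chr6:88724162-88724411, plus strand: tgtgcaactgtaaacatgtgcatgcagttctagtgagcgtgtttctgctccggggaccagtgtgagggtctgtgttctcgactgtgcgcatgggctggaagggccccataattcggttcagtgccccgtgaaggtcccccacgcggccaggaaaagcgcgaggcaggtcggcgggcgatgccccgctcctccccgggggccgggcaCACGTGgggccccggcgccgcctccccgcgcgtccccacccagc
Abhd5, chr9:122351366-122351607, plus strand: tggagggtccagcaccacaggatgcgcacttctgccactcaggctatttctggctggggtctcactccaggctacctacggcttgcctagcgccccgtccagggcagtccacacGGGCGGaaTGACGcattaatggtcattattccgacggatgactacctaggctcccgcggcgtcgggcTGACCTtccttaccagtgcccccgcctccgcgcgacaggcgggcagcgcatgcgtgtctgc
Cidec, chr6:113435761-113436010, minus strand: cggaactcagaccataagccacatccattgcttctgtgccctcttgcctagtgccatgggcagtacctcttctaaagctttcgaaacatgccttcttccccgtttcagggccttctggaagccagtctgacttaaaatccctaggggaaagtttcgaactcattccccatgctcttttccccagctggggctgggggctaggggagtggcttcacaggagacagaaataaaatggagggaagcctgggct
Pnpla2, chr7:141454938-141455187, plus strand: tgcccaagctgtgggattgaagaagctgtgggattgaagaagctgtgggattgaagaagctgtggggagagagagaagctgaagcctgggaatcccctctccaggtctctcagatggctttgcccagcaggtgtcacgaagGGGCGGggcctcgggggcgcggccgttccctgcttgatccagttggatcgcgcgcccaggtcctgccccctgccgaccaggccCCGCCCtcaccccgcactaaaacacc
Over the 250 bases of the RefSeq promoters shown, Mgll had 68% G and C with an E-box and Pnpla2 63.2% with GC boxes. Abhd5 had 64.8% with a GC box and both cores, and Cidec 52.8% with none of the motifs. A further promoter of Mgll, inside the gene, had 74.8% with a GC box and no E-box. One of Cidec, also inside the gene, had 56.8% with none of the motifs. E-boxes were found in 6.02% of all 32851 promoters of this length, GC boxes in 32.7%, AGGTCA in 14% and TGACG in 17.8%. The peroxisome proliferator response element, a direct repeat of the AGGTCA core with 1 base between, was in 0.0335% of them and in none of the 11, and TGACGTCA, which contains the TGACG core, was in 1.55% and in none of the 11. TTGCGCAA (0.164% of all) and TATAAA (12.4%) were in none of the 11 either, and CCAAT (33.8%) was in the promoter of Plin4.

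Per kilobase of exon (GENCODE M21), Cidec, which fuses droplets into 1 large one, was the highest of the 10, with a median of 945 normalized CPM per kilobase over the 36 mice. Plin4 (487) and Pnpla2 (350) followed. Plin1, Mgll, Lipe and G0s2 had medians of 174, 154, 146 and 119 per kilobase. The lowest were Pde3b (39.5), Adrb3 (27.1) and Abhd5 (19.0). In GRCm38 these genes lie at chr6:113424634-113435760 (Cidec), chr17:56100591-56109803 (Plin4), chr7:141455198-141460743 (Pnpla2), chr7:79720218-79732903 (Plin1), chr6:88724412-88828360 (Mgll), chr7:25379527-25398710 (Lipe), chr1:193272161-193273217 (G0s2), chr7:114415281-114539251 (Pde3b), chr8:27225776-27250616 (Adrb3) and chr9:122351608-122381524 (Abhd5). Adrb3 was also the most variable member, with 9.6 to 292 normalized CPM over the mice and group means that differed by up to 5.68-fold, against 2.41-fold for Abhd5. In the order of the 12 group means, neighbouring groups overlapped throughout for 9 of the 10 members, and for G0s2 in 10 of the 11 neighbouring pairs.

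**Figure D1:**
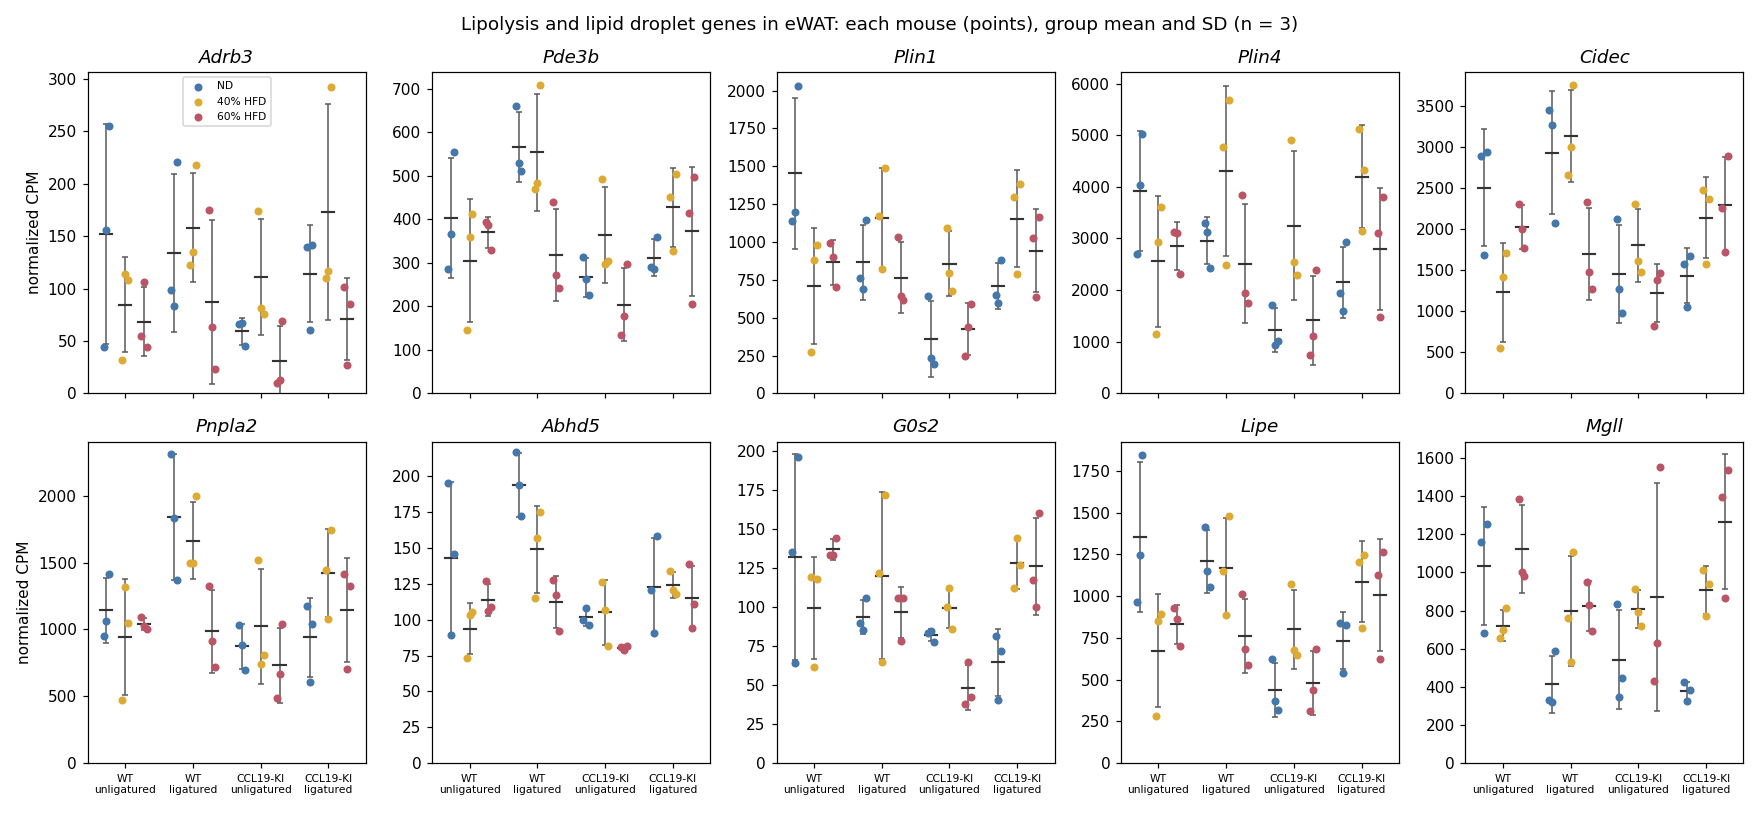
Normalized CPM (y axis, starting at 0) of each of the 10 genes in the 36 mice by genotype, ligature and diet, with 1 point a mouse and bars for the mean ± SD of 3 mice, drawn down to 0 at most. Mgll lay at 327 to 424 in ligatured ND CCL19-KI mice and at 867 to 1538 in ligatured 60% HFD CCL19-KI mice, and Plin1 at 192 to 645 in unligatured ND CCL19-KI mice and at 1136 to 2028 in the libraries labelled unligatured ND WT.

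Most members rose and fell together from mouse to mouse. Over the 36 mice, Pnpla2 and Pde3b had a Pearson correlation of 0.94 on the log2 scale, and Lipe had 0.93 with both Plin1 and Plin4. Mgll followed the others least, from 0.54 with G0s2 to -0.06 with Abhd5. The mean z-score of the 10 members, in which each gene counts equally, correlated at 0.97 with the score of the 12 adipocyte markers, 0.22 with that of the macrophage markers and -0.04 with that of the hepatocyte markers. All points share the depth and tissue make-up of their library, so these correlations describe the 36 libraries and no p is given. The genes whose level followed the members' z-score most closely were Opn3 (0.94), Dolk, Dgkd and Man2a2 (0.93 each), Tshr and Slc22a3 (0.92 each), Gnai1, Dgat1 and C9orf72 (0.91 each) and Acvr1c (0.90). Of these, Dgat1 makes triacylglycerol, Gnai1 encodes an inhibitory G protein subunit, and Acvr1c was also on the adipocyte marker list.

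**Figure D2:**
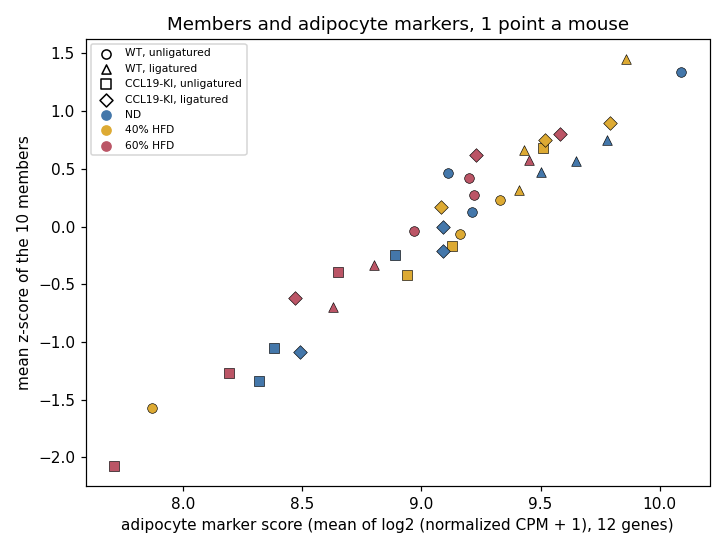
Mean z-score of the 10 members (y axis, no unit) against the adipocyte marker score (x axis, mean of log2 (normalized CPM + 1) over 12 genes), 1 point a mouse, coloured by diet and shaped by genotype and ligature. The points follow 1 line (Pearson r = 0.97, 36 mice), from a z-score of -2.07 in an unligatured 60% HFD CCL19-KI mouse to 1.45 in a ligatured 40% HFD WT mouse.

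Averaged over genotype and ligature, Mgll, the gene for the last step of lipolysis, was higher under each HFD than under ND. Across genotype and ligature its mean ± SD was 591 ± 330 normalized CPM under ND, 809 ± 160 with 40% HFD and 1021 ± 369 with 60% HFD (n = 12 each). The log2 fold change against ND was 0.60 ± 0.18 (SE) for the 40% HFD (adjusted p = 0.0383, limma over all genes) and 0.87 ± 0.18 for the 60% HFD (adjusted p = 0.00257). Mgll was the only member called for the 40% HFD, where 9.21% of all genes were called, and 1 of 2 called for the 60% HFD, where 18.6% were. The rise under the 60% HFD kept its call in all 53 alternative fits, with log2 fold changes of 0.59 to 1.09. For the 40% HFD the call was lost in 18 of 53 alternatives, 14 of which left out a single mouse. The fold changes were 0.53 (adjusted p = 0.0331) and 0.67 (adjusted p = 0.00747) once the 2 libraries that went against their label were left out, with 7.90% and 15.0% of all genes called. Between the 2 HFDs Mgll was not called, with a change of 0.14 (adjusted p = 0.732, limma) without those libraries.

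The rise in Mgll was seen mouse by mouse in ligatured CCL19-KI mice. Mgll was 424, 327 and 382 normalized CPM under ND, 1014, 771 and 940 with 40% HFD, and 1394, 867 and 1538 with 60% HFD. No HFD mouse overlapped an ND mouse, a separation that 14.7% of all genes showed upward for the 40% HFD and 19.2% for the 60% HFD. The log2 fold changes were 1.26 ± 0.37 (adjusted p = 0.0437, limma) and 1.71 ± 0.37 (adjusted p = 0.00478), with 4.92% and 12.8% of all genes called. The second kept its call in all 54 alternatives (1.22 to 2.10), and the first lost it in 19 of 54. The epididymis sum of these mice was 2745, 1208 and 14.6 under ND and at most 1.91 with either HFD, and with that score in the fit the changes were 1.09 (adjusted p = 0.155) and 1.55 (adjusted p = 0.0232).

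In ligatured WT mice Mgll was 331, 322 and 587 under ND, 763, 530 and 1105 with 40% HFD, and 952, 831 and 692 with 60% HFD. The 40% HFD mice overlapped the ND mice. The 60% HFD mice all lay above the ND mice, as in 19.2% of all genes. The fold change was 1.04 ± 0.37 on the log2 scale (adjusted p = 0.118, limma). In the fit without the 2 libraries that went against their label the adjusted p was 0.0407, with 4.75% of all genes called. Neither library is in these groups, so only the shared estimate of spread and the set of genes tested changed. None of the members was called among the 2.57% of all genes called there, nor for the 40% HFD, which called 0.207%.

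In unligatured mice Mgll was not called between ND and either HFD. The libraries labelled unligatured ND WT had 1162, 682 and 1255. The 40% HFD WT mice had 655, 698 and 811, and the 60% HFD WT mice 1388, 1000 and 981. The groups overlapped in both comparisons with ND, for the 40% HFD only through 682, from the library that went against its label. Without it, the 40% HFD WT mice all lay below the ND mice, as 18.4% of all genes did. Unligatured CCL19-KI mice had 836, 345 and 444 under ND, 912, 794 and 718 with 40% HFD, and 431, 631 and 1551 with 60% HFD, the last value from a library that went against its label. For the 60% HFD against ND, 3.41% of all genes were called in unligatured WT and 10.2% in unligatured CCL19-KI mice, with no member among them. Leaving out the 2 libraries that went against their label, this Mgll change was -0.12 in unligatured WT and 0.05 in unligatured CCL19-KI mice. For the 40% HFD against ND it was then -0.75 and 0.67. The 60% HFD effect was larger in ligatured than in unligatured mice by a log2 difference of 1.01 (95% interval 0.26 to 1.76), which did not pass the test over all genes (adjusted p = 0.214, limma). Without the 2 libraries that went against their label it was 1.41 (0.77 to 2.06, adjusted p = 0.0131), in a comparison that called 5.17% of all genes without them and none with them.

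Mgll was also lower in ligatured than in unligatured WT mice under ND. The log2 fold change was -1.33 ± 0.37 (adjusted p = 0.0307, limma), and all 3 ligatured mice lay below all 3 unligatured libraries, as 15.3% of all genes did. It was the only member called there, among 6.73% of all genes. It was -1.60 (adjusted p = 0.00453) without the library labelled unligatured ND WT replicate 2 and the other that went against its label, with 10.8% of all genes called. With the hepatocyte marker score in the fit it was -0.82 (adjusted p = 0.25). The hepatocyte sum was 129 to 1540 in the unligatured and 4370 to 14269 in the ligatured libraries of this comparison, and its part in the result was not tested further. Leaving out any 1 of 4 mice, unligatured replicate 1 or 3 or ligatured replicate 1 or 2, also ended the call (adjusted p = 0.096 to 0.159). Under ND, the ligatured CCL19-KI mice (424, 327 and 382) overlapped the unligatured ones (836, 345 and 444).

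Abhd5, the activator of the first lipase, fell under the 60% HFD. Its level was 89 to 217 normalized CPM under ND (median 133), 73 to 175 with 40% HFD (median 117) and 78.9 to 139 with 60% HFD (median 108, n = 12 each). The log2 fold change of the 60% HFD against ND was -0.37 ± 0.11 (adjusted p = 0.027, limma) and -0.44 (adjusted p = 0.00857) without the 2 libraries that went against their label. With the adipocyte marker score in the fit it was -0.27 (adjusted p = 0.0702), with the hepatocyte score -0.35 (adjusted p = 0.107). Leaving out replicate 1 of both unligatured ND groups (adjusted p = 0.0513, limma), ligatured ND CCL19-KI replicate 3 (0.0587), ligatured 60% HFD WT replicate 3 (0.0504) or ligatured 60% HFD CCL19-KI replicate 2 (0.0502) also ended the call. The 2 diets overlapped in each of the 4 pairs of groups except in ligatured WT mice, with 217, 194 and 172 under ND against 128, 117 and 92.3 under the 60% HFD, as 16.2% of all genes did downward, and in the libraries labelled unligatured CCL19-KI, with 100, 108 and 96 against 80.9, 78.9 and 81.7, as 7.98% did. The second separation also held without the last of these libraries, which went against its label, where 15.0% of all genes separated downward.

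Adrb3, the receptor of the catecholamine signal in adipocytes, was lowest under the 60% HFD. Its median was 90.7 normalized CPM under ND (44.5 to 255), 116 with 40% HFD (32.2 to 292) and 59.4 with 60% HFD (9.6 to 175, n = 12 each). The log2 fold change of the 60% HFD was -1.02 ± 0.37 against ND (adjusted p = 0.0526, limma) and -1.26 ± 0.37 against the 40% HFD (adjusted p = 0.0965), where 0.745% of all genes were called and no member. Both passed the threshold without the 2 libraries that went against their label (-1.18, adjusted p = 0.03, and -1.47, adjusted p = 0.0315), the latter among 1.52% of all genes. With the adipocyte marker score in the fit of 36 mice the first was -0.49. The remaining 7 members had log2 fold changes of -0.31 to 0.11 for the 60% HFD against ND and none was called, with intervals that reach, for Plin1, from -0.49 to 0.42.

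**Figure D3:**
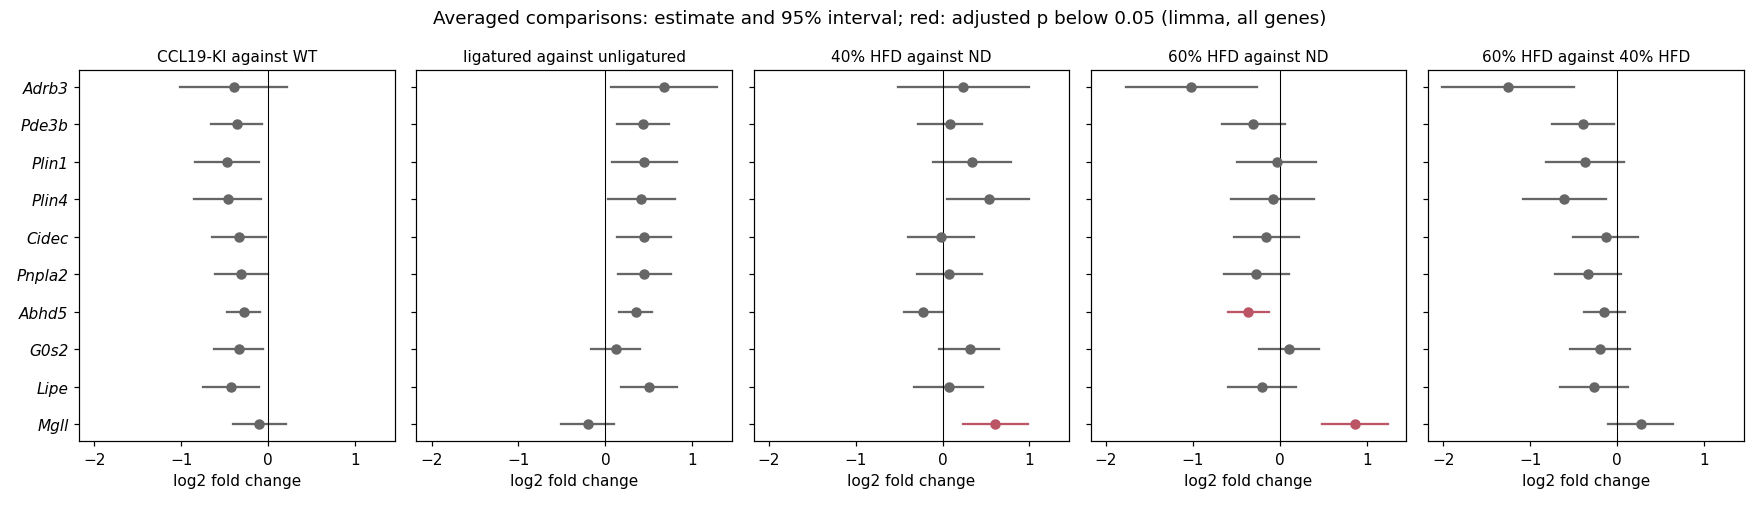
Log2 fold change (x axis) of the 10 genes in the 5 comparisons averaged over the other factors, as points with 95% intervals from limma, red where the adjusted p was below 0.05. Red points are Mgll for both HFDs against ND (0.60 and 0.87) and Abhd5 for the 60% HFD against ND (-0.37).

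Other genes of the pathway were read beside the members. Of 21 receptor and cAMP genes tested, 4 were called under the 60% HFD, a share near the 18.6% of all genes called there. Npr3, which clears natriuretic peptides, rose by 1.31 on the log2 scale (adjusted p = 0.00513, limma), as did the prostaglandin receptor gene Ptger3 (0.72, adjusted p = 0.0229), while the fatty acid receptor gene Ffar4 fell (-0.85, adjusted p = 0.0104). Of 9 other hydrolases and carriers, 5 rose and Ces1d fell, where 10.2% of all genes rose and 8.40% fell. The fatty acid carrier Fabp5 rose by 1.65 (adjusted p = 2.36e-04), the lipase gene Pnpla3 by 1.30 and the lysosomal lipase gene Lipa by 1.05. Of 14 other droplet genes, 6 rose and none fell, among them Cideb (1.79), Fitm1 (1.36) and Plin2 (0.94), a coat protein of many cell types. The medians of the 3 lists were 0.14, 0.79 and 0.49, against 0.01 for all genes and -0.18 for the 10 members.

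Under the 40% HFD, where 9.21% of all genes were called, 3 of the 21 receptor and cAMP genes were called (among them Npr3 at 1.08 and Gnas at 0.22), 2 of the 9 hydrolases and carriers (Fabp5 0.80 and the glycerol channel gene Aqp7 0.77) and 4 of the 14 droplet genes, with Hsd17b13 (2.55), Cideb (2.21) and Fitm1 (1.30) as the largest. Hepatocytes also express Cideb and Hsd17b13, and 9 of 10 hepatocyte markers rose with each HFD (median log2 fold change 3.90 and 3.05). With the hepatocyte score in the fit, the fold changes of these 3 genes under the 40% HFD were -0.55, -0.23 and -0.19, and under the 60% HFD Cideb had -0.08, Fitm1 0.22 and Plin2 0.38. Between the HFDs, Ces1d was the 1 pathway gene called (-1.01, adjusted p = 0.023, limma).

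Averaged over diet and ligature, no member passed the test between CCL19-KI and WT mice, in a comparison that called 0.459% of all genes. All 10 estimates lay below 0, from -0.47 for Plin1 to -0.11 for Mgll, and 8 had an unadjusted p below 0.05, as did 9.02% of all genes in that direction. With sample quality weights 9 members and 21.3% of all genes were called, in an estimate of weights that did not converge. The members' median was -0.35, beside -0.02 for all genes tested and -0.42 for the 12 adipocyte markers, of which 1, Cebpa, was called. Abhd5 was lower in CCL19-KI mice when the 2 libraries that went against their label were left out (-0.33 ± 0.09, adjusted p = 0.0248, limma), in a comparison that then called 7.35% of all genes. With the adipocyte marker score in the fit of 36 mice, the largest estimates were 0.28 for Adrb3 and -0.22 for G0s2. Adipoq, the gene of the knocked-in locus, was lower (-1.75, adjusted p = 1.18e-05, limma).

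Within unligatured ND mice, 3 members were lower in CCL19-KI mice. Plin1, the main coat protein of the adipocyte droplet, was 645, 234 and 192 normalized CPM in CCL19-KI mice against 1136, 1197 and 2028 in the libraries labelled WT. Lipe was 625, 374 and 316 against 964, 1248 and 1847. Plin4 was 1708, 946 and 1015 against 2706, 4044 and 5022. In all 3 genes no mouse of the 2 groups overlapped, as was so for 14.7% of all genes in that direction. The log2 fold changes were -2.19 ± 0.44 for Plin1 (adjusted p = 0.00444, limma), -1.63 ± 0.38 for Lipe (0.00881) and -1.69 ± 0.46 for Plin4 (0.0173), in a comparison that called 16.6% of all genes.

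The library labelled unligatured ND WT replicate 2 belongs to this comparison. Without it and the other library that went against its label, Plin1 (-2.30, adjusted p = 0.00408, limma), Lipe (-1.67, 0.0104) and Plin4 (-1.64, 0.0235) stayed past the threshold, and Mgll (-1.26, 0.0123), Abhd5 (-0.73, 0.0267) and G0s2 (-0.98, 0.0395) joined them, while 19.5% of all genes were called. Adipocyte markers moved in the same direction, with a median log2 fold change of -0.98 and 4 of 12 called lower in the fit of 36 mice. With the adipocyte score in the fit, the values were -1.09 for Plin1 (adjusted p = 0.0299), -0.61 for Lipe (0.0383) and -0.56 for Plin4 (0.241). The hepatocyte sum was 129 to 1540 in the libraries labelled WT and 1106 to 30089 in CCL19-KI mice, and with that score in the fit the 3 calls were lost (adjusted p = 0.165, 0.178 and 0.293). They were also lost in a fit of these 6 mice alone (0.114, 0.11 and 0.115). Plin4 lost its call without WT replicate 3, CCL19-KI replicate 2 or CCL19-KI replicate 3 (adjusted p = 0.0704 to 0.102), and Lipe without either of those 2 CCL19-KI mice (0.0609 and 0.0646).

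Within unligatured 60% HFD mice, G0s2, the inhibitor of the first lipase, was 133, 133 and 144 in WT mice and 37.7, 65 and 42.4 in the libraries labelled CCL19-KI, with no overlap (16.3% of all genes were lower in this way). Its log2 fold change was -1.52 ± 0.33 (adjusted p = 0.00709, limma), and 16.8% of all genes were called. All 10 members had estimates below 0 here, from -1.57 to -0.49, and 7 passed the DEG criteria of the study (p up to 0.05 before adjustment, ratio from 1.5 upward or from 0.67 downward), which 10.8% of all genes passed in that direction. Without the 2 libraries that went against their label, Mgll (-1.09, adjusted p = 0.0259), Plin4 (-1.64, 0.0256), Adrb3 (-2.41, 0.0318) and Pde3b (-1.25, 0.029) were called beside G0s2 (-1.44, 0.00735), with 17.8% of all genes. The epididymis sum was 345 to 12723 in the libraries labelled CCL19-KI and at most 0.201 in the WT mice, and that of hepatocyte markers was 921 to 1610 against 9964 to 40765. With the epididymis score in the fit of 36 mice, G0s2 had -0.97 (adjusted p = 0.15), with the hepatocyte score -1.10 (0.124) and with both -0.43 (0.844). Without the libraries with an epididymis sum above 1000 it had -1.83, with 1 library labelled CCL19-KI left here.

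In the other 4 comparisons of genotype no member was called. Under a 40% HFD the estimates were 0.05 to 0.68 in unligatured and -0.57 to 0.24 in ligatured mice, and in ligatured 60% HFD mice they were -0.05 to 0.59. In the first of these 0.00560% of all genes were called, and 0.0112% in each of the others. In ligatured ND mice 6 members were lower in CCL19-KI mice without overlap (Pnpla2, Lipe, Abhd5, G0s2, Cidec and Pde3b). The adipocyte sum was 15008 to 22220 in these CCL19-KI mice and 28317 to 34210 in the WT mice, and the epididymis sum 14.6 to 2745 and 0.659 to 3.48, and their part in the result was not tested. Pnpla2 was 1177, 608 and 1039 in CCL19-KI mice against 2313, 1834 and 1369 in WT mice, where 9.53% of all genes separated in that direction, but its log2 fold change of -0.99 ± 0.36 did not pass the test (adjusted p = 0.208, limma), with 1.03% of all genes called. Differences in the genotype effect between diets or between ligature states were called for no member in the fit of 36 mice. For Plin1, the genotype effect was higher under the 40% HFD than under ND by 1.45 (95% interval 0.54 to 2.35, adjusted p = 0.255, limma), and 5 members had an unadjusted p below 0.05 there, as did 7.90% of all genes upward.

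**Figure D4:**
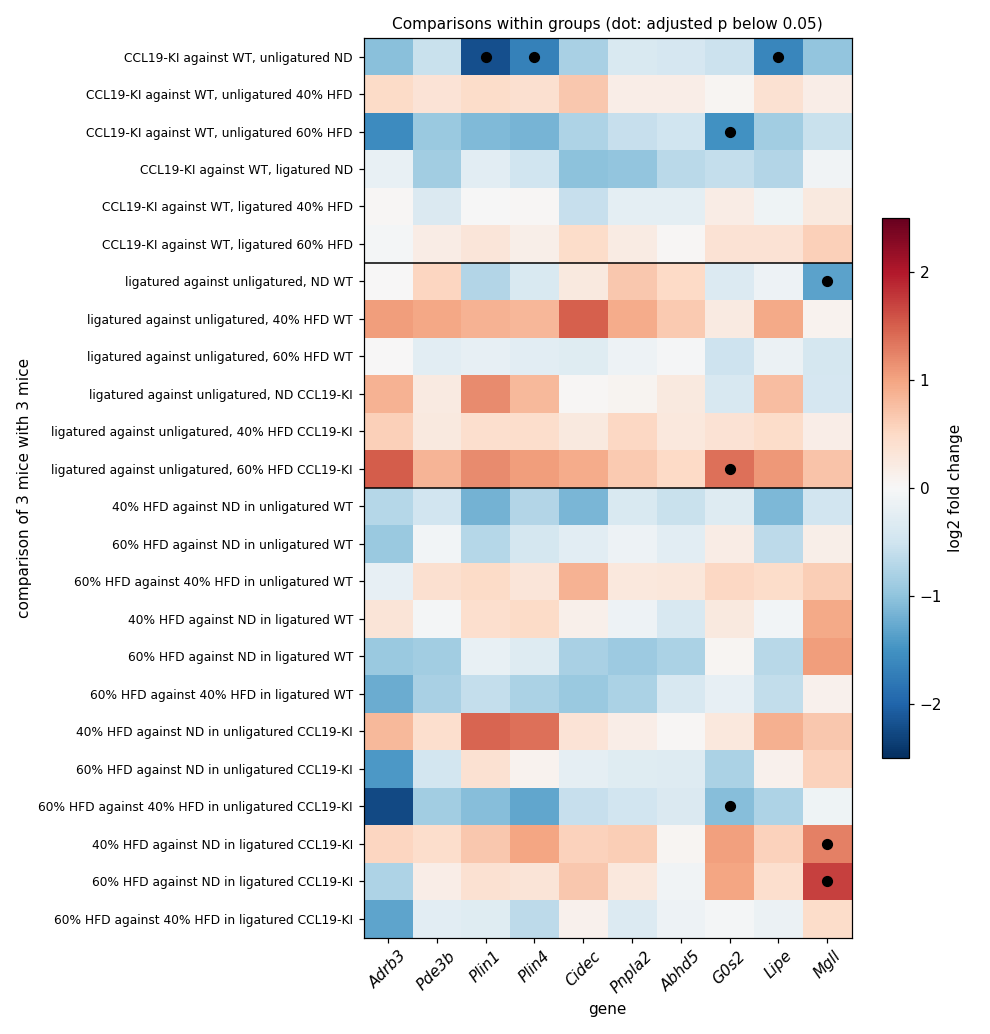
Log2 fold change (colour, red higher and blue lower) of the 10 genes in the 24 comparisons of 3 mice with 3 mice, with a dot where the limma adjusted p was below 0.05. Dots mark 9 cells, among them Plin1 (-2.19), Lipe (-1.63) and Plin4 (-1.69) in unligatured ND mice and Mgll (1.71) for the 60% HFD in ligatured CCL19-KI mice.

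Averaged over diet and genotype, no member passed the test for the ligature, where 0.325% of all genes were called. Of the 10 estimates 9 lay above 0, with 8 at an unadjusted p below 0.05, as were 7.18% of all genes in that direction, and Mgll was the 1 below (-0.20). Sample quality weights, which did not converge, called 7 members and 12.6% of all genes. Without the 6 libraries with a high epididymis marker sum, ligatured ND CCL19-KI and unligatured 60% HFD CCL19-KI each kept 1 library. The calls of that fit are therefore not counted here. Abhd5 came nearest to the threshold (0.35 ± 0.09, adjusted p = 0.0868, limma), followed by Lipe (0.50 ± 0.16, adjusted p = 0.132) and Pnpla2 (0.45 ± 0.15, adjusted p = 0.144). The members' median was 0.43, that of the adipocyte markers 0.37 and that of all genes -0.02. None of the other pathway genes tested was called.

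By group, G0s2 rose with the ligature in 60% HFD CCL19-KI mice. It was 117, 100 and 160 in ligatured mice against 37.7, 65 and 42.4 in the unligatured libraries, without overlap (12.4% of all genes in that direction), a change of 1.37 ± 0.33 on the log2 scale (adjusted p = 0.0201, limma) where 5.66% of all genes were called. All 10 estimates were above 0 (0.49 to 1.52). With the 2 libraries that went against their label left out, Lipe (1.38, adjusted p = 0.0393), Mgll (1.24, 0.0223) and Adrb3 (2.36, 0.049) were called with G0s2 (1.30, 0.0191), among 9.82% of all genes. The 12 adipocyte markers had a median of 0.96 there, with 3 called higher, and with their score in the fit G0s2 had 1.09 (adjusted p = 0.0614). With the epididymis score it had 0.85 (adjusted p = 0.289), with the hepatocyte score 1.04 (0.11), with both 0.40 (0.743), and in a fit of the 6 libraries alone 1.37 (0.198). Without the libraries with an epididymis sum above 1000 it had 1.69, with 1 unligatured library left here. The epididymis sum was 345 to 12723 in the unligatured libraries and at most 1.91 in the ligatured mice, and the hepatocyte sum 921 to 1610 and 2907 to 21731. Without unligatured replicate 1, ligatured replicate 1 or ligatured replicate 3 the adjusted p was 0.0619 to 0.0848.

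Cidec showed the largest ligature difference in 40% HFD WT mice, with 2658, 2999 and 3761 in ligatured against 554, 1425 and 1715 in unligatured mice. The log2 fold change was 1.49 ± 0.37 (unadjusted p = 4.09e-04), but no gene of all tested was called in that comparison by limma (adjusted p = 0.182 for Cidec). Pnpla2, Lipe, Abhd5, Cidec and Pde3b, 5 members in all, passed the DEG criteria upward, as 3.65% of all genes did. In the 3 comparisons of ligature not yet described, in 60% HFD WT, ND CCL19-KI and 40% HFD CCL19-KI mice, no member was called and the estimates were -0.51 to 1.19, with 0%, 1.37% and 0% of all genes called.

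G0s2 also fell from the 40% to the 60% HFD in the libraries labelled unligatured CCL19-KI, from 99.9, 112 and 86.2 to 37.7, 65 and 42.4 (log2 fold change -1.06 ± 0.33, adjusted p = 0.0455, limma, with 9.53% of all genes called). The groups did not overlap (12.7% of all genes in that direction), but the call was lost in 26 of 54 alternatives, including the fit without the 2 libraries that went against their label (-0.98, adjusted p = 0.0642, limma). It was -0.53 (adjusted p = 0.531) with the epididymis score and -0.01 (adjusted p = 0.997) with both the hepatocyte and epididymis scores. Without the libraries with an epididymis sum above 1000 it was -1.37, with 1 library left under the 60% HFD here. The epididymis sum was at most 3.08 under the 40% HFD and 345 to 12723 under the 60% HFD, and the hepatocyte sum 7647 to 38930 and 921 to 1610. Without the 2 libraries that went against their label, Plin4 (-1.75, adjusted p = 0.0303) and Adrb3 (-3.09, adjusted p = 0.0179) were called instead of G0s2, among 8.38% of all genes.

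In ligatured WT mice, Pnpla2, Lipe, Abhd5 and Pde3b lay lower under the 60% HFD than under ND without overlap, as 16.2% of all genes did. Pde3b, which breaks down cAMP, was 440, 272 and 243 under the 60% HFD and 659, 529 and 511 under ND. None of them passed the test in the fit of 36 mice. Abhd5 did in the fit without the 2 libraries that went against their label (-0.79, adjusted p = 0.0255, limma), which called 4.75% of all genes here. Neither library is in these groups, so that call rests on a changed estimate of spread and set of genes tested, not on other mice.

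Plin1 also separated the diets in unligatured mice, upward in CCL19-KI mice and downward in the libraries labelled WT, while the difference in its genotype effect between these diets, given above, did not pass the test. From ND to the 40% HFD, Plin1 went from 645, 234 and 192 to 1095, 797 and 679 in CCL19-KI mice, where Lipe, Plin1, Plin4, G0s2 and Adrb3, 5 members in all, lay higher without overlap (5.47% of all genes did) and no gene was called. In the libraries labelled WT it went from 1136, 1197 and 2028 to 271, 878 and 982, where Lipe and Plin1 lay lower without overlap (9.91% of all genes) and 6.03% of all genes were called, none of them a member. Without the 2 libraries that went against their label, Abhd5 (-0.86, adjusted p = 0.0236, limma) and Cidec (-1.40, adjusted p = 0.0349) were called there, among 8.07% of all genes. In ligatured CCL19-KI mice, G0s2 was called in that fit for both HFDs against ND (1.03, adjusted p = 0.0303, and 0.99, adjusted p = 0.024), among 9.55% and 19.6% of all genes. These groups hold neither library, so only the shared estimate of spread and the set of genes tested changed.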

How the data were processed

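RNA of eWAT from 36 mice had been rRNA-depleted, made into directional libraries and sequenced in paired ends. The authors trimmed reads with Trimmomatic, aligned them with Bowtie2 within RSEM and deposited 1 table of normalized counts, a signal in CPM scaled by edgeR. The sources name mm10 in one place and GRCm39 in another, so coordinates and exon lengths here come from GENCODE M21 (GRCm38). Whole reads were recovered from the values (tolerance 0.01). IDs were matched to symbols (24626 matched, 124 not).

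Values were tested as log2 (normalized CPM + 1) with limma 3.58.1 (R 4.3.3), after a filter of at least 1 in at least 3 libraries, in 1 fit of 12 group means, two-sided, with Benjamini-Hochberg adjustment over all 17852 genes tested and a threshold of 0.05. The p-values measure the spread between mice of a group. edgeR 4.0.16 served as an alternative on the recovered reads. No pair of libraries agreed within sampling noise (chi-square per degree of freedom of 15.3 or more). The fit was also run on simulated data, whose outcome is not given here and is not used as support. The text names all 10 members, and pathway genes that passed the test. One pathway gene is counted with its list but not reported here. The members and lists were chosen with earlier results of these data known. The alternatives without the libraries that went against their genotype label, or without those with a high epididymis marker sum, were chosen after seeing the data.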

Additional observations from a re-analysis of the deposited data

Results flagged for a closer look

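For each of the following effects, the groups of 3 libraries did not overlap in either of the contrasts set side by side, in opposite directions, and the difference between those 2 groups was not itself tested. Of all genes, 0.330% to 1.23% did so in the same directions in the pairs below. The interactions averaged over the remaining factor bear on it in part. They are limma estimates with adjusted p-values over all genes.

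G0s2 differed with the ligature under the 60% HFD by -0.51 (log2) in WT mice and by 1.37 in the libraries labelled CCL19-KI. Its genotype effect in ligatured minus unligatured mice was 0.66 (adjusted p = 0.408), and 0.78 (adjusted p = 0.116) without the 2 libraries that went against their label. From ND to the 60% HFD it differed by -0.79 in unligatured and 0.99 in ligatured CCL19-KI mice, with an averaged difference of 0.81 (adjusted p = 0.275). From the 40% to the 60% HFD in unligatured mice it differed by -1.06 in CCL19-KI and 0.51 in WT mice, with an averaged difference of -0.70 (adjusted p = 0.362). Without those 2 libraries the last difference was -0.66 (adjusted p = 0.3).

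From ND to the 40% HFD in unligatured mice, Lipe differed by -1.13 in WT and 0.89 in CCL19-KI mice, and Plin1 by -1.19 and 1.45. The averaged differences were 1.32 (adjusted p = 0.252) and 1.45 (adjusted p = 0.255).

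Cidec differed from the 40% to the 60% HFD by 0.87 in unligatured WT mice, against -0.92 in ligatured WT and -0.58 in unligatured CCL19-KI mice. Its averaged genotype difference between these diets was -0.21 (adjusted p = 0.837), and -0.29 (adjusted p = 0.744) without the 2 libraries that went against their label.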

How the results depend on the processing

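Of 18850 values of members under the alternatives, 18500 kept their direction and side of the threshold, 105 lost a call, 245 gained one and 0 reversed. Mgll under the 60% HFD kept its call under every alternative run, averaged and in ligatured CCL19-KI mice. Counts below are of members called, and the cause of each move was not tested. Where no share of all genes stands beside a count, the count is not read as a result about the members.

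In the averaged comparisons the main counts were 0 for genotype, 0 for ligature, 1 for the 40% HFD, 2 for the 60% HFD and 0 between the HFDs. Sample quality weights, whose estimation did not converge, gave 9, 7 and 3 for genotype, ligature and the 40% HFD, where 21.3%, 12.6% and 26.9% of all genes were called. Leaving out the 2 libraries that went against their label gave 1 for genotype, 3 for the 60% HFD and 1 between the HFDs. The fit without the libraries with a high epididymis marker sum left 1 library in some groups, so its counts are not given. For the 40% HFD, quantile normalization, the epididymis score and both scores gave 0, and the adipocyte score 2. The hepatocyte score gave 1 for ligature and 1 for the 60% HFD, the adipocyte score 1 for the 60% HFD, both scores 1 between the HFDs, and dropping replicate 1 of both unligatured ND groups 1 for ligature. With single mice left out, counts ranged from 0 to 1 for genotype, ligature, the 40% HFD and between the HFDs, and from 1 to 3 for the 60% HFD.

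Within groups the counts were 4 for genotype, 2 for ligature, 3 for diet and 0 for differences of effects. Quality weights gave 23, 9, 30 and 21, and the fit without the 2 mismatching libraries 11, 5, 10 and 1. The hepatocyte score gave 0 for genotype and 0 for ligature, both scores 1 and 1, the epididymis score 1 for ligature, and fits of only the 2 groups 1 and 0. Without replicate 1 of both unligatured ND groups the counts were 7 for diet and 2 for differences. For diet, no filter gave 1, a mean of at least 5 gave 5 and quantile normalization 6. Single mice left out gave 2 to 9, 1 to 4, 1 to 8 and 0 to 2. Replicate numbers share only a number (median correlation of deviations -0.02 for same-numbered mice), and the replicate block moved the diet count from 3 to 5.

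With the hepatocyte score, and then with both scores, Hsd17b13 under the 40% HFD had -0.55 and -0.60, Cideb -0.23 and -0.29, and Fitm1 -0.19 and -0.38. Cideb under the 60% HFD had -0.08 and -0.11. With 3 mice a group, small differences could not be resolved.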
